A study of Harpegnathos saltator with 75 samples.

Results

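The ovary of the jumping ant Harpegnathos saltator was compared between day 0 and day 3 of the period in which workers become gamergates, with the ants of both later fates pooled at day 3. The comparison used 15 of the 75 libraries of the study, chosen by their labelled tissue and day. They were 5 ovaries at day 0, 5 at day 3 from prospective gamergates and 5 at day 3 from prospective workers. The day 0 ants carried the caste label worker, all ants were of a single species with no genotype or drug treatment in the labels, and all 15 libraries were made from polyadenylated RNA. The study sampled brain without its visual part, fat body and ovary, and it sampled them again at day 10. Nothing in the labels says whether numbered replicates are separate ants, and a p-value here measures spread among the sequenced samples, which may be technical. Day 3 is the first time point after day 0, and the comparison asks which transcripts have moved by then in ants of either fate.

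In Harpegnathos saltator, workers that lose their reproductives duel with their antennae, and the winners become gamergates, which are mated workers that lay eggs. In insects the ovary is built of tubes, the ovarioles, in which germ cells grow into eggs inside a layer of somatic follicle cells. As oocytes mature they load maternal transcripts and take up yolk protein, much of which is made by the fat body. In a bulk sample of such an organ, a change in the number of cells of a type and a change in RNA per cell cannot be told apart.

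The libraries held 939390 to 4677916 reads assigned to genes, and the day 0 libraries were deeper (median 2944504) than those of day 3 (median 1463947.5). The table names genes by identifier only, and 0 of its 20659 identifiers matched the RefSeq gene table used here. The genes below therefore carry no name or role, and the label ovary could not be checked against named markers. Reads shared with near-identical or overlapping genes could not be recognised for any of them. Library names carry the flow cell and lane of sequencing: all day 3 gamergates ran on lane 2 and all day 3 workers on lane 1 of a single flow cell, with day 0 numbers 1, 2 and 5, while day 0 numbers 3 and 4 ran on the flow cell of the day 10 libraries. In gamergate library 1 the 10 most abundant genes held 13.04% of the reads, against 2.983% to 4.581% in the other 14 libraries. Gamergate library 1 and worker library 4 also had the lowest rank correlations with the mean day 0 profile (Spearman's rho of 0.899 and 0.924 across genes, which are not independent replicates). The spread within a group, as biological coefficient of variation, was 0.227 at day 0, 0.284 in day 3 gamergates and 0.344 in day 3 workers. It was 0.202 and 0.241 in the day 3 groups without those libraries.

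By day 3 the ovary had changed in many genes by small amounts. Of 9150 genes tested, 952 were higher at day 3 and 985 were lower, which is 10.4% and 10.8% of the genes tested and 21.2% together (edgeR quasi-likelihood test, adjusted p below 0.05, called genes from here on). Genes called higher had a median log2 fold change of 0.60 and genes called lower one of -0.58, against -0.01 over all genes tested. More than 2-fold increases numbered 143 (1.56% of genes tested) and more than 2-fold decreases 112 (1.22%).

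Called genes of high level were mostly higher at day 3 and those of middle level mostly lower. Among 2760 genes with a mean above 100 CPM over the 25 ovary libraries (CPM, counts scaled to 1e+06 assigned reads after TMM), 500 were higher and 189 lower. Among 5402 genes between 10 and 100 CPM the counts were 399 and 721, and among 988 genes below 10 CPM they were 53 and 75. Of the 100 most abundant genes, 40 were higher and 3 lower, and 1 of them changed more than 2-fold. Above 100 CPM the counts were 564 and 152 with RLE scaling, 444 and 106 with libraries thinned to equal depth, and 208 and 58 on the day 3 flow cell alone. Between 10 and 100 CPM the same settings gave 429 and 629, 281 and 424, and 150 and 247. All settings used the same level classes. The means behind these classes include the day 3 and day 10 libraries, so level was not independent of the change. The plot of fold change against level shows this tilt together with the few large changes.

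**Figure D1:**
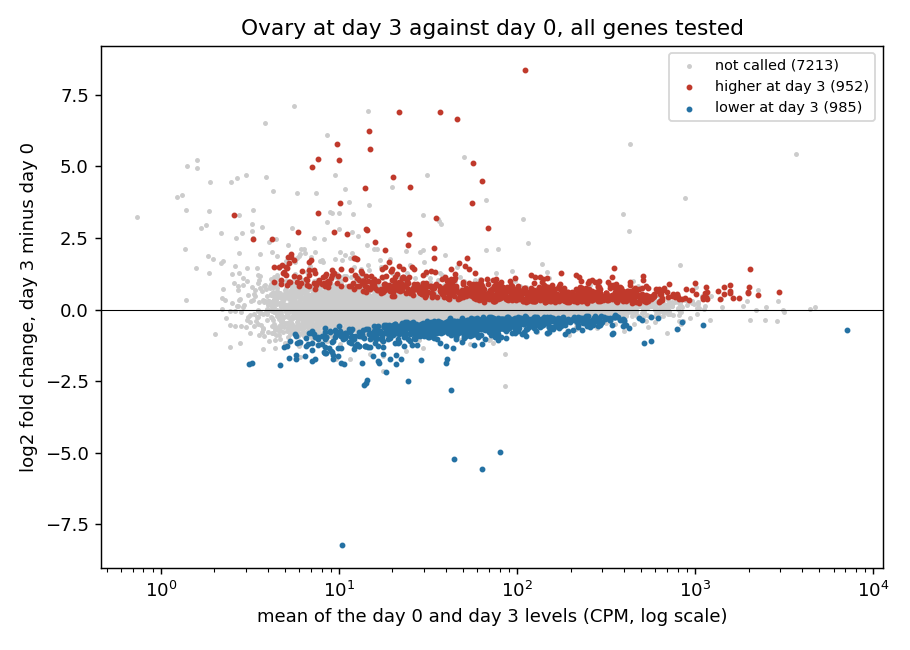
Log2 fold change of the ovary from day 0 to day 3 (vertical axis) against the mean of the day 0 and day 3 levels in CPM (horizontal log axis), 1 point per gene tested. The 952 genes called higher (red) outnumber the 985 called lower (blue) at the right and are outnumbered by them in the middle.

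The groups were seldom fully apart for a gene. All 10 day 3 libraries lay above all 5 day 0 libraries for 163 genes (1.78% of those tested) and below them for 231 (2.52%). Among the genes called higher, 160 had all 10 day 3 libraries above day 0, 243 had 9, 284 had 8 and 172 had 7. Among the genes called lower, 223 had all 10 below, 297 had 9, 215 had 8 and 124 had 7. Most called genes thus had at least 7 day 3 libraries beyond day 0, whereas 8 called higher and 33 called lower had 3 or fewer. The calls were made from these same libraries, so the tally describes them and does not test whether a change was shared.

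**Figure D2:**
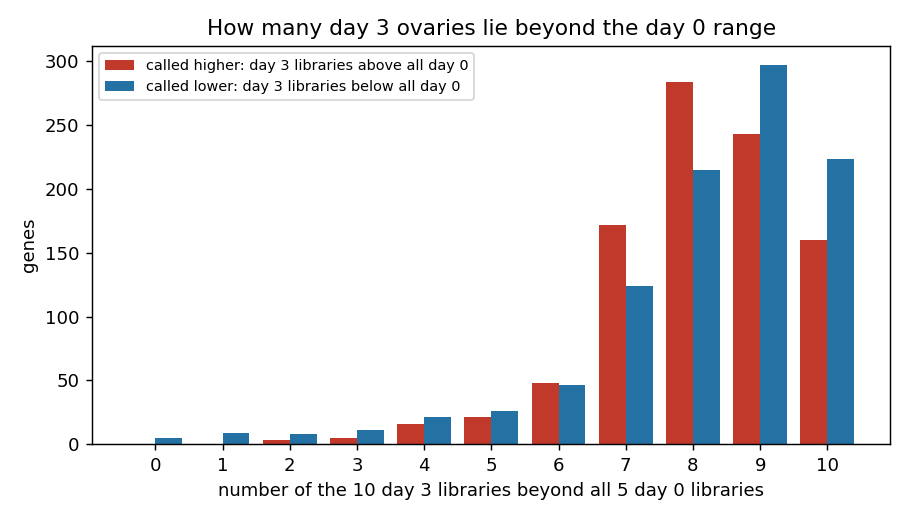
Number of called genes (vertical axis) by how many of the 10 day 3 ovary libraries lay beyond all 5 day 0 libraries (horizontal axis), for genes called higher (red) and lower (blue). The bars are tallest at 8 libraries for the higher genes (284) and at 9 for the lower genes (297).

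Single libraries led many of the large changes. Gamergate library 1 was the highest day 3 library for 32.9% of the 143 genes that rose more than 2-fold, and for 13.1% of all genes tested. Day 0 library 3 was the highest day 0 library for 41.1% of the 112 genes that fell more than 2-fold, against 24.6% of all genes tested. Without gamergate library 1 and worker library 4, 116 of the 143 and 99 of the 112 were still called.

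Complete appearance or loss of a transcript was rare. Over both groups, 14530239 reads at day 0 and 14752010 at day 3, 7 genes had 0 reads at day 0 and at least 30 at day 3, the most being 133. In 6 of these 7, at least 90% of the day 3 reads came from 2 libraries, and in 5 the top library was gamergate library 1 or worker library 4. Only 2 genes had 0 reads at day 3 and at least 30 at day 0, the most being 362.

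The count of called genes moved with the terms and libraries of the fit. Over the 1937 genes called above, the median size of the changes moved little. With flow cell and lane together as a term 488 genes were called, and with the day 3 flow cell alone (3 day 0 libraries) 706; of the 1937 genes, 472 and 683 were among these, and none was called in the opposite direction. Over the 1937 genes the median absolute log2 fold change was 0.583 with that term and 0.59 without it, and the median SE was 0.203 against 0.157. The 1937 genes were selected as called and refitted in mostly the same libraries, which favours similar sizes and directions. The count was 1266 without day 0 library 5 and 1272 with all libraries thinned to 737818 reads.

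The genes shown in full are the 2 per direction with the largest change among called genes that reached 10 CPM and whose groups did not overlap. HSALG011413.2 was at 0, 0, 0.460, 0.199 and 0.922 CPM in day 0 libraries 1 to 5, which is 5 reads in all. It was at 4.98, 6.40, 7.53, 18.9 and 24.0 CPM in day 3 gamergates and at 38.5, 12.03, 9.60, 4.08 and 23.3 CPM in day 3 workers. Every day 3 library exceeded every day 0 library, and the castes overlapped throughout. This is a log2 fold change of 5.26 (SE 0.77) with an edgeR adjusted p of 0.000203. At day 10 its mean was 0.708 CPM in gamergates, with reads in 1 of the 5, and 1.57 CPM in workers.

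HSALG006025.2 was at 0.725, 1.29, 0.919, 4.78 and 2.15 CPM in the day 0 libraries. At day 3 it was at 144, 93.5, 21.5, 19.99 and 20.4 CPM in gamergates and 24.3, 10.03, 45.1, 86.3 and 16.3 CPM in workers. The day 3 libraries were all above day 0, and the highest values were in gamergate libraries 1 and 2 and worker library 4. Its log2 fold change of 4.28 (SE 0.80, edgeR adjusted p = 0.00145) became 3.67 when gamergate library 1 and worker library 4 were left out. At day 10 it stood at 91.3 ± 50.5 CPM in gamergates (SD, n = 5) and 2.15 ± 0.748 CPM in workers (SD, n = 5), with gamergate library 5 at 2.83 CPM beside the workers.

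HSALG020503.1 moved the other way. It was at 62.4, 64.6, 73.5, 68.1 and 105 CPM in the day 0 libraries, at 4.98, 1.60, 4.84, 16.2 and 10.96 CPM in day 3 gamergates and at 18.6, 17.4, 18.2, 4.08 and 10.9 CPM in day 3 workers. All 10 day 3 values were below the lowest day 0 value. Its log2 fold change of -2.81 (SE 0.61) had an edgeR adjusted p of 0.00406. Against day 0 on their own, the gamergates passed the threshold (edgeR adjusted p = 0.0112) and the workers did not (edgeR adjusted p = 0.0522), and the difference between the castes was not called (edgeR adjusted p = 0.985). At day 10 the workers were at 202 ± 135 CPM (SD, n = 5), and 4 of the 5 gamergates were at 2.05 to 3.26 CPM, with library 5 at 86.4 CPM. The same gene was at 358.9 to 2836 CPM in day 0 brain.

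HSALG027005.1 was at 11.6, 8.75, 33.5, 22.1 and 45.5 CPM in the day 0 ovaries. It was at 1.25, 2.40, 3.77, 2.70 and 4.70 CPM in day 3 gamergates and at 6.42, 7.35, 3.84, 4.76 and 7.60 CPM in day 3 workers. No day 3 library reached the lowest day 0 value, and the castes overlapped (edgeR adjusted p = 0.983 for their difference). Its log2 fold change of -2.46 (SE 0.33, edgeR adjusted p = 0.000161) became -1.85 with flow cell and lane as a term (edgeR adjusted p = 0.00827). In the brain of the same days it also fell by 2.12 on the log2 scale (edgeR adjusted p = 0.000243). In fat body, where it was not among the genes tested, its mean went from 8.74 CPM at day 0 to 1.49 CPM at day 3.

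**Figure D3:**
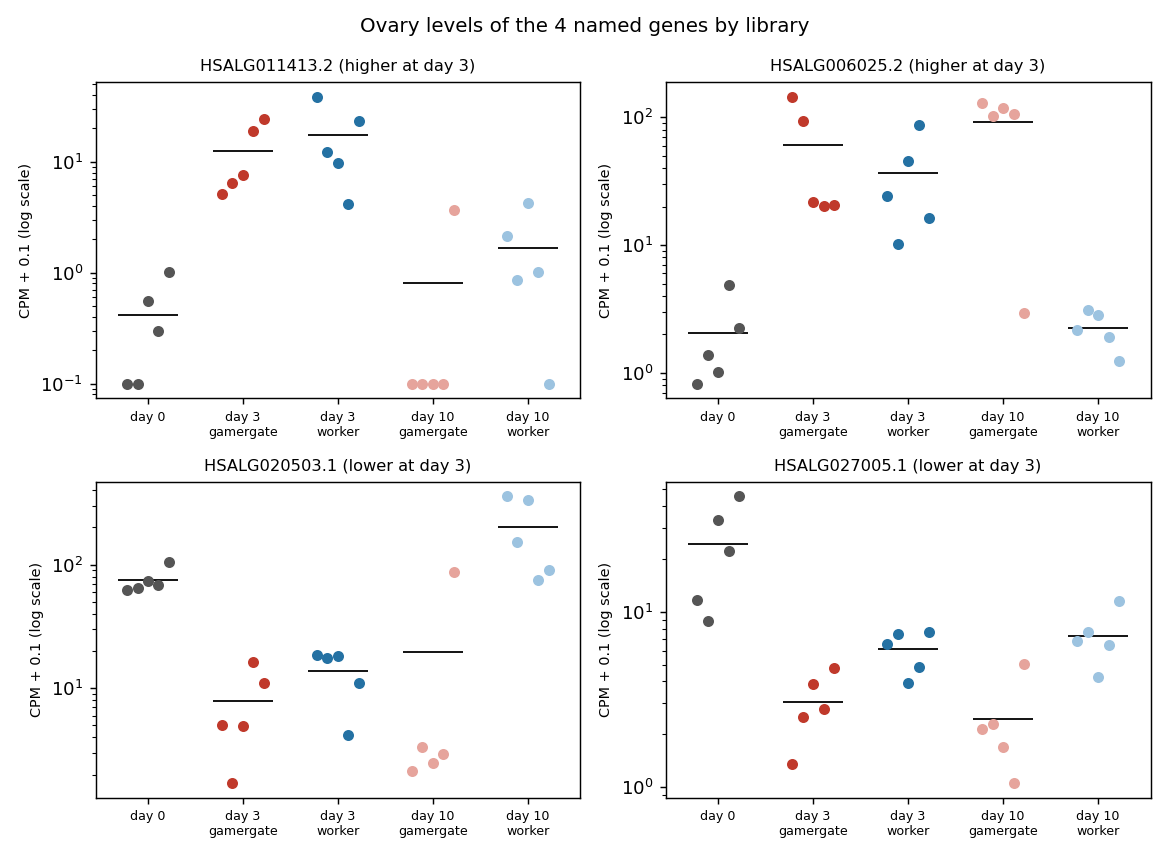
Ovary level of 4 genes in every library, as CPM plus 0.1 on a log axis, for the 5 groups on the horizontal axis. Points are libraries and bars are group means; in HSALG006025.2 the 10 day 3 libraries (10.03 to 144 CPM) lie above the 5 at day 0 (0.725 to 4.78 CPM), and day 10 gamergates and workers lie apart except for gamergate library 5.

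No gene passed the test between the castes at day 3. Between day 3 gamergates and workers 0 of 9150 genes were called by the edgeR quasi-likelihood test (0%), 362 had an unadjusted p below 0.05 (3.96%), and DESeq2 called 5. Against day 0, 888 genes were higher (9.7% of those tested) and 804 lower (8.79%) in gamergates, 18.5% together. In workers 374 were higher (4.09%) and 282 lower (3.08%), 7.17% together. Both comparisons share the day 0 libraries, and the larger count in gamergates is not a tested difference. The worker count was 1167 without worker library 4 and 182 without worker library 1, and the gamergate count was 898 without library 3 and 1033 without library 2. Each day 3 caste ran on its own lane, so lane could be fitted beside caste only through the day 0 libraries. With flow cell and lane as a term 7 genes were called in gamergates against day 0, 16 in workers and 0 between the castes.

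The genes that mark the castes at day 10 were then followed in the day 3 ovaries. A list of 75 genes had a log2 difference above 3 in favour of gamergates at day 10, and a list of 38 had it in favour of workers, both at adjusted p below 0.05 and a mean of at least 10 CPM; they were drawn from day 10 libraries and carry no test here. The 75 genes took 0.517%, 0.637%, 0.201%, 0.296% and 0.123% of reads in day 0 libraries 1 to 5. They took 2.49%, 0.757%, 0.343%, 0.202% and 0.117% in day 3 gamergates and 0.188%, 0.301%, 0.331%, 2.92% and 0.303% in day 3 workers. Gamergate library 1 and worker library 4 stood far above all day 0 libraries, gamergate library 2 slightly above, and the other 7 within or below the day 0 range. At day 10 the share was 21.8%, 19.7%, 3.12%, 18.7% and 0.214% in gamergates and at most 0.254% in workers.

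Gene by gene the same libraries stood out. In gamergate library 1, 67 of the 75 genes lay above all day 0 libraries, in worker library 4 it was 60, in gamergate library 2 it was 45, and in the other 7 libraries 7 to 18. Over all genes tested the corresponding share was 21.5% to 29.5% per library. Of the 75 genes 11 were called higher in the pooled comparison and 0 lower (14.7% called, against 10.4% higher and 10.8% lower over all genes tested), with a median log2 fold change of 1.31 against -0.01 over all genes tested. Leaving out gamergate library 1 and worker library 4 brought the median to 0.02, with 5 called higher and 1 lower (8% called, against 12.8% higher and 12.4% lower over all genes tested in that setting).

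The 38 genes high in day 10 workers were low in several day 3 libraries. In gamergate libraries 1, 2 and 3, 20, 23 and 16 of them lay below all day 0 libraries, and in worker library 4 it was 19 (52.6%, 60.5%, 42.1% and 50% of the list, against 35.1%, 33.7%, 32.7% and 29.3% of all genes tested). In worker library 2, 24 of the 38 lay above all day 0 libraries (63.2% of the list, against 27.8% of all genes tested). HSALG020503.1 is a member of this list. In the pooled comparison 1 of the 38 was called higher and 4 lower (13.2% called, against 21.2% over all genes tested). The median log2 fold change was -0.23 pooled, -0.79 in gamergates and 0.41 in workers, and the pooled median was 0.10 on the day 3 flow cell alone and 0.26 with flow cell and lane as a term. Of the 38 genes, 14 also belong to the fat body list described next. That list held its highest share among the 15 libraries, 1.786% of reads, in worker library 2.

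**Figure D4:**
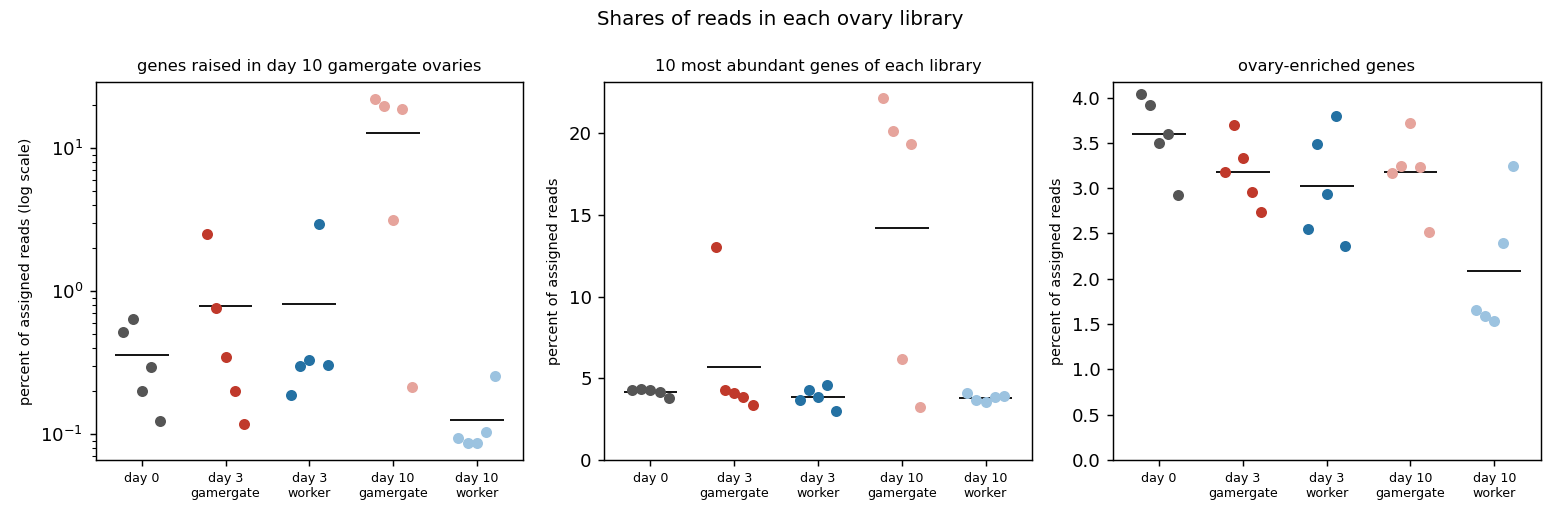
Percent of assigned reads in each ovary library (points; bars are group means) taken by the 75 genes high in day 10 gamergates (left, log axis), by the 10 most abundant genes of each library (middle) and by 112 ovary-enriched genes (right). Gamergate library 1 and worker library 4 stand above the other day 3 libraries at the left, and gamergate library 1 stands alone at 13.04% in the middle.

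Most genes of the tissue-enriched lists were not called in the day 3 ovary. The lists were taken from the day 10 libraries of the 3 tissues (log2 fold above 3 against both other tissues in both castes, mean of at least 10 CPM). All 112 ovary-enriched genes were tested in ovary, and 12 were called higher and 3 lower (median log2 fold change 0.09). Only 150 of the 720 brain-enriched genes were tested in ovary, with 8 called higher and 7 lower (median 0.06). Of the 260 fat-body-enriched genes 171 were tested, with 8 called higher and 11 lower (median 0.09). The shares of called genes, 13.4%, 10% and 11.1%, were below the 21.2% over all genes tested. The lists were not matched for level, and over all genes tested the share called was 13% below 10 CPM, 20.7% from 10 to 100 CPM and 25% above 100 CPM.

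As a share of reads the ovary list held 3.60% ± 0.437 at day 0 (SD, n = 5) and 3.10% ± 0.481 at day 3 (SD, n = 10; two-sided exact permutation test, p = 0.0786, adjusted over 7 values 0.14). The brain list held 0.369% ± 0.0285 and 0.331% ± 0.0396 (exact permutation p = 0.0799, adjusted 0.14). The fat body list held 1.26% ± 0.150 and 1.19% ± 0.236 (exact permutation p = 0.592, adjusted 0.82). These shares cover all members of each list, including those not tested in ovary. The ovary share fell below all day 0 libraries in 3 of 10 day 3 libraries. The difference was -0.492 percentage points with all 15 libraries. Without day 0 library 5 it was -0.66 (exact permutation, unadjusted p = 0.026). The difference was -0.219 with TMM-scaled totals (exact permutation p = 0.457) and -0.178 for a list at log2 fold above 2 (exact permutation p = 0.63). In each of the 15 libraries the ovary list held more reads (2.366% to 4.044%) than the brain list (0.2684% to 0.4174%) and the fat body list (1.026% to 1.786%).

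The other library measures did not pass the threshold after adjustment. Reads in no annotated gene were 41.4% ± 1.51 at day 0 (SD, n = 5) and 37.5% ± 2.55 at day 3 (SD, n = 10), and they were below all day 0 libraries in 7 of 10 (two-sided exact permutation p = 0.0117, adjusted 0.0548). On the day 3 flow cell alone the difference was -3.73 percentage points (exact permutation p = 0.0524). Reads aligned to several places were 5.15% ± 0.215 and 4.67% ± 0.333 (exact permutation p = 0.0157, adjusted 0.0548). The 10 most abundant genes held 4.16% ± 0.227 and 4.79% ± 2.93 (exact permutation p = 0.916), with the mean of day 3 below that of day 0 when gamergate library 1 was left out. At 939390 reads per library, 11770 ± 314 genes were seen at day 0 and 11720 ± 223 at day 3 (exact permutation p = 0.703).

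Gamergate library 1 held a gene that the other libraries nearly lacked. HSALG004473.2, chosen after its values were seen, had 58946 reads there, which is 6.27% of the library, and 53 reads in the other 14 libraries, 41 of them in day 0 library 2. Its log2 fold change of 5.43 was not called (edgeR adjusted p = 0.31). At day 10 it held 0.000152% to 0.0361% of gamergate ovary reads, and 96 reads were found over all fat body libraries, 84 of them in fat body library 1 of the day 3 gamergates. It is 1 of 12 genes with at least 90% of their summed CPM in gamergate library 1, which together made up 10.4% of its reads.

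Many genes called in the ovary were also called in the brain. In brain 2303 of 9886 genes were called between day 0 and day 3 (23.3%), and in fat body 1292 of 7941 (16.3%). Higher genes were 8.47% and lower genes 14.8% of those tested in brain, and 8.61% and 7.66% in fat body. Of 8327 genes tested in ovary and brain, 682 were called in both, 677 of them in the same direction, which is 37.5% of the ovary calls and 33.3% of the brain calls, against 24.6% and 21.8% over all genes tested. Whether tissues of the same number came from the same ant is not in the labels. Deviations from the group mean in ovary and brain correlated at a median of 0.135 for the same number (10 of 15 pairs over 0.1) and -0.00264 for other numbers (9 of 60), and the part of shared ants in the overlap was not tested. Of the 881 genes called higher in ovary, 205 were higher and 5 lower in brain (median log2 fold change in brain 0.44). Of the 938 called lower, 472 were lower and 0 higher (median -0.59; -0.03 over all genes tested).

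Fewer of the ovary genes were called in fat body, where fewer genes were called in all. Of 7524 genes tested in both, 348 were called in both and 311 of these in the same direction, which is 20.9% of the ovary calls and 29.5% of the fat body calls, against 15.7% and 22.1% over all genes tested. Tissues of the same number were spread over the flow cells in the same way. On the day 3 flow cell alone, 269 genes were shared with brain (263 in the same direction, 40.1% of the ovary calls against 25% over all genes tested) and 65 with fat body (60 in the same direction, 10.6% against 7.72%).

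**Figure D5:**
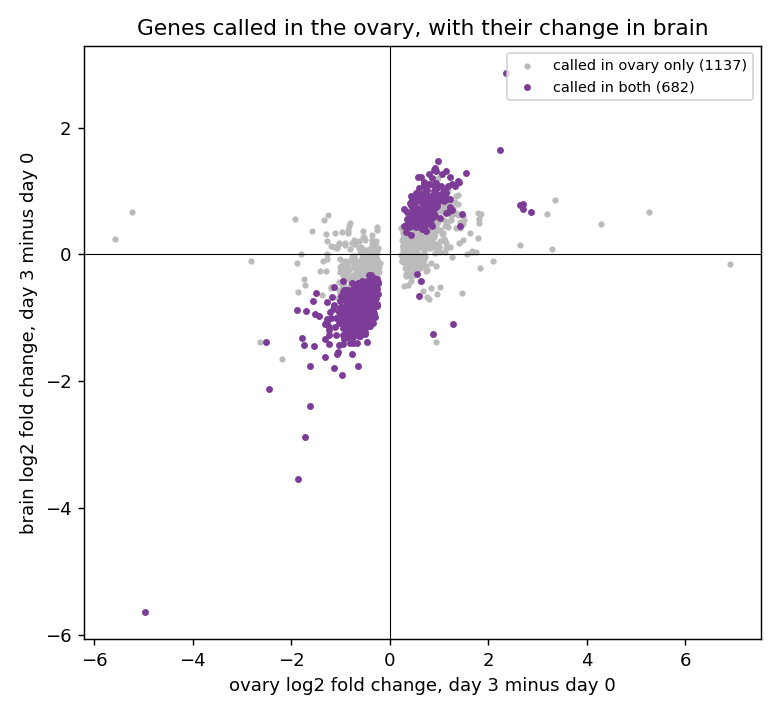
Log2 fold change from day 0 to day 3 in brain (vertical axis) against ovary (horizontal axis) for the genes called in ovary and tested in brain. The 682 genes called in both tissues (purple) lie almost all in the quadrants of equal sign, 677 of them, and the 1137 called in ovary only are grey.

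A direct test of the difference between tissues called few genes for brain and more for fat body. In a joint fit of 45 libraries and 10885 genes, the change in ovary differed from that in brain for 27 genes (0.248%), 16 higher (0.147%) and 11 lower (0.101%) in ovary, and from that in fat body for 425 (3.9%), 157 higher (1.44%) and 268 lower (2.46%) (edgeR quasi-likelihood test of the difference). With RLE scaling the fat body split was 215 and 207. On the day 3 flow cell alone the counts were 8 and 168, and without a filter on low counts 16 genes differed from brain. Against both tissues the change in ovary was higher for 4 genes (0.0367%) and lower for 5 (0.0459%). HSALG020503.1, shown above, was among the 5. Its change in ovary minus that in brain was -2.75 on the log2 scale (edgeR adjusted p = 0.0177). Minus that in fat body it was -3.34 (edgeR adjusted p = 0.000259). Its own change was not called in brain (edgeR adjusted p = 0.786) or fat body (edgeR adjusted p = 0.517).

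HSALG011413.2 was among the 4 genes with a higher change in ovary. Its change was larger in ovary than in brain by 4.45 on the log2 scale (SE 0.73, edgeR adjusted p = 0.00123). Fat body nearly lacked it, with 3 reads over the 5 day 0 and 4 over the 10 day 3 libraries, so the fitted difference from fat body describes the ovary change against near-absent counts. In brain it stood at 7.46 CPM on average at day 0 and 12.4 CPM at day 3. The difference from brain was not called on the day 3 flow cell alone (edgeR adjusted p = 0.0871), and that from fat body (edgeR adjusted p = 0.0407) was lost there, without a filter on low counts (0.0539), and without day 0 library 1, 2 or 4 (up to 0.0603).

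HSALG009891.2 was at 0.725, 0.257, 2.30, 0.797 and 2.76 CPM in day 0 ovaries. It was at 8.71, 24.0, 29.1, 34.6 and 18.8 CPM in day 3 gamergates and at 21.4, 18.1, 17.3, 1.36 and 16.3 CPM in day 3 workers. Worker library 4 alone stayed within the day 0 range. The ovary changed by 3.74 on the log2 scale (SE 0.54, edgeR adjusted p = 0.000196), larger than in brain by 3.67 (SE 0.64, edgeR adjusted p = 0.00302). On the day 3 flow cell alone the difference from brain was not called (edgeR adjusted p = 0.0871). Fat body held 5 reads of the gene over the day 0 and 3 over the day 3 libraries, too few to say how it changed there.

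HSALG003485.2 was at 803, 506, 456, 658 and 218 CPM in day 0 ovaries. At day 3 it was at 407, 429, 440, 402 and 286 CPM in gamergates and 402, 505, 442, 228 and 218 CPM in workers, all within the day 0 range. It went from 3.47 ± 3.44 CPM (SD, n = 5) to 23.3 ± 12.8 (SD, n = 10) in brain and from 125 ± 134 (SD, n = 5) to 1280 ± 644 CPM (SD, n = 10) in fat body. Its log2 fold change was -0.49 in ovary (edgeR adjusted p = 0.113), 2.86 in brain and 3.35 in fat body (edgeR adjusted p = 0.00598 and 0.000511). The change in ovary minus that in brain was -3.40 on the log2 scale (edgeR adjusted p = 0.0294; 0.0544 without day 0 library 1, 0.0526 without library 4, 0.0619 without a filter on low counts, 0.254 on the day 3 flow cell alone) and minus that in fat body -3.94 (edgeR adjusted p = 3.3e-05).

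HSALG003019.2 was high in a single ovary library. It was at 16.0, 199, 2.30, 0.597 and 0.614 CPM in day 0 ovaries and between 0 and 1.57 CPM in the 10 of day 3. Day 0 library 2 held 775 of its 807 day 0 reads. The gene belongs to the brain-enriched list and was at 150 to 194 CPM in day 0 brain. Its change in ovary minus that in brain was -6.86 on the log2 scale (SE 1.23, edgeR adjusted p = 0.00368) and -3.15 without day 0 library 2 (edgeR adjusted p = 0.142). Fat body held 4 reads at day 0 and 17 at day 3, and the gene entered the joint fit through its brain level.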

How the data were processed

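Polyadenylated RNA of brain, fat body and ovary was sequenced in 75 libraries, and 15 ovary libraries carry the comparison. The deposited table holds raw counts per gene as whole numbers, which the authors did not normalize. The submitters' processing notes name Trimmomatic (a read trimmer), STAR 2.5.3a (an aligner) and HTSeq (a read counter). Genome build, annotation and strand setting were not given in the sources used here; a gene and its antisense partner cannot be told apart. The 5 summary entries of the counter (reads in no gene made up 34% to 43.45% of reads in the 15 libraries) stayed out of library sizes and tests.

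Counts of the 25 ovary libraries were fitted with edgeR 4.0.16 in R 4.3.3, with TMM scaling, filterByExpr (minimum count 10, minimum total 15), 1 coefficient per group and the robust quasi-likelihood test. The pooled contrast was the mean of the day 3 groups minus day 0. Benjamini-Hochberg adjustment ran over all 9150 genes, with a threshold of 0.05. Standard errors were derived from each log2 fold change and its F statistic, as their ratio after taking the root of F, and so restate the test. Differences between tissues came from a joint fit of 45 libraries. Library-level values had two-sided exact permutation tests over 3003 regroupings, where the smallest p is 0.000333, adjusted over 7 values. Counts of 0 reads cover counting error only.

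Named genes were the 2 per direction with the largest change among called genes of at least 10 CPM in the higher day with no overlap between groups, and the 2 per direction with the largest smaller difference from both other tissues. The members and the gene lists were chosen with earlier results of these data known. DESeq2 1.42.0, RLE scaling, no filter, 15 libraries only, flow cell and lane as a term, the day 3 flow cell alone, a replicate block and each library left out were tried. Leaving out gamergate library 1 with worker library 4, thinning to 737818 reads and the lists from the day 10 castes were chosen after seeing the data. Counts of replicate pairs differed by a chi-square per gene of at least 3.09 over 30 pairs, where counting noise alone gives about 1, so no library was treated as a repeat of another. The edgeR fits were also run on simulated counts with known changes. The simulation had a single spread and no flow cell differences or deviating libraries, so it does not cover those features. Figures were drawn with matplotlib 3.10.9.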

Additional observations from a re-analysis of the deposited data

Results flagged for a closer look

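Of 48 group values tested for a library standing apart from its group of 5, 9 did. The nominal rate is about 1 in 20 for independent values of regular spread. These values share libraries and include genes chosen from the same data, so the 9 cannot be read against that rate. Worth a second look are gamergate library 1 and worker library 4 of day 3. The 75 genes high in day 10 gamergates held 2.486% of reads in gamergate library 1 (0.1174% to 0.7573% in the other 4 gamergates) and 2.918% in worker library 4 (0.1876% to 0.3314% in the other 4 workers). The 10 most abundant genes held 13.04% of gamergate library 1, against 3.349% to 4.282% in the other gamergates. Worker library 4 was also at 1.359 CPM of HSALG009891.2, where the other workers were at 16.29 to 21.4 CPM.

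The share of fat-body-enriched genes was 1.521% in day 0 library 3 (1.14% to 1.222% in the others) and 1.216% in day 3 gamergate library 4 (1.026% to 1.076% in the others). HSALG020503.1 was at 105.1 CPM in day 0 library 5 (62.38 to 73.52 in the others), HSALG003019.2 at 199.4 CPM in day 0 library 2 (0.5974 to 15.96) and HSALG003485.2 at 285.5 CPM in gamergate library 5 (402 to 440.1).

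The change from day 0 to day 3 differed between ovary and brain for 27 genes and between ovary and fat body for 425 (edgeR quasi-likelihood test of the difference). For HSALG011413.2 the log2 change in ovary exceeded that in brain by 4.446 and that in fat body by 5.328. For HSALG009891.2 the differences were 3.671 and 5.834, for HSALG003019.2 they were -6.86 and -8.025, and for HSALG003485.2 they were -3.396 and -3.937. Fat body nearly lacked the first 3 of these genes (3 and 4, 5 and 3, and 4 and 17 reads over the day 0 and day 3 libraries), so their fitted differences from fat body do not measure a change there.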

How the results depend on the processing

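With flow cell and lane as a term the pooled, gamergate and worker comparisons with day 0 called 488, 7 and 16 genes, and with the day 3 flow cell alone 706, 649 and 147. The median size of the 1937 pooled changes was 0.583 (log2) with the lane term against 0.59 without, and the median SE was 0.203 against 0.157. Those changes were selected as called without that term, which favours similar sizes. The worker count was 1058 with DESeq2, which called 5 genes between the castes, 307 without a filter and 1208 without gamergate library 1 and worker library 4. Thinning gave 1272 pooled and 370 worker calls. With 1 library left out in turn, the ranges were 1266 to 2502 pooled, 898 to 2329 for gamergates, 182 to 1167 for workers, 0 to 0 between castes, 17 to 38 for ovary minus brain and 357 to 456 for ovary minus fat body. Without a filter HSALG003019.2 and HSALG011413.2 lost their calls against fat body (edgeR adjusted p = 0.057 and 0.0539) and HSALG003485.2 against brain (0.0619). Ovary minus brain called 16 genes without a filter and 8 on the day 3 flow cell, where ovary minus fat body called 168. The calls of the 4 genes named for the pooled comparison held in every alternative that gave a value. These genes were chosen for large changes without overlap in the same libraries, which favours such an outcome. HSALG011413.2 was not among the genes tested after thinning.

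Deviations of same-numbered ovary libraries correlated at a median of 0.0604 (-0.642 to 0.434), and 7 of 15 pairs exceeded 0.1. For other numbers the median was -0.0144 (-0.41 to 0.548), and 19 of 60 pairs exceeded 0.1. Whether replicate numbers pair the ovaries is not settled by these values. With the number as a block the counts were 2239 pooled, 2039 for gamergates, 914 for workers and 0 between castes, and across tissues 27 and 447. With this block HSALG003019.2 lost its calls (-4.47 for brain, edgeR adjusted p = 0.191) and HSALG011413.2 its call against fat body (edgeR adjusted p = 0.0864).

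Differences in shares, day 3 minus day 0 in percentage points, ranged with 1 library left out from -0.66 to -0.38 for the ovary list, -0.044 to -0.0259 for the brain list, -0.137 to -0.00558 for the fat body list, -0.286 to 0.831 for the 10 most abundant genes, -4.38 to -3.40 for reads in no gene and -0.535 to -0.399 for reads at several places. Genes seen at equal depth differed by -164.0 to 36.7. The fat body list difference turned to 0.0199 with TMM-scaled totals and 0.00358 on the day 3 flow cell, and that of equal-depth genes to 102.0 there. Without gamergate library 1 and worker library 4 the values were -0.374 for the 10 most abundant genes, 3.23 for genes at equal depth and -0.587 for the ovary list (exact permutation p = 0.0497). On the day 3 flow cell reads in no gene differed by -3.73 (exact permutation p = 0.0524) and reads at several places by -0.442 (exact permutation p = 0.0664). The causes were not tested.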

Other observations

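The first principal component of the 15 ovary libraries held 33.1% of the variance and did not separate the days. Gamergate library 1 (65.8), worker library 4 (53.8) and gamergate library 2 (30.3) had its highest scores. The second held 21.6%: the day 0 libraries scored -29.8 to -18.2 and 7 of the day 3 libraries scored 9.62 to 31.8. Gamergate library 5 (0.68) and worker library 5 (-9.08) lay between these ranges, and worker library 4 (-28.8) lay among day 0. Gamergate library 5 and worker library 5 also had the highest rank correlations of the day 3 libraries with the mean day 0 profile (0.974 and 0.963 across genes). Each of them was the highest day 3 library for 1.4% of the genes that rose more than 2-fold, and for 10.1% and 14.3% of all genes tested. Without either library the pooled count of called genes was 2385 and 2304.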
